A study of Mus musculus with 15 samples.

Results

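Fatty acid oxidation genes and targets of the nuclear receptor PPAR-alpha were followed in hearts and livers of Abcb5 mutant mice. The gene set had 42 members, chosen by symbol from the enzymes of mitochondrial and peroxisomal beta-oxidation, the carnitine system and established PPAR-alpha targets. Earlier results of these data were known when the set was chosen. Of these, 39 had at least 1 of 66 probes among the 25697 probes of the array, which stood for 16593 named genes in all. Acsl1, Hadha and Ucp2 had no probe and were not analysed here.

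RNA had been measured on one-colour Illumina bead arrays, 1 array per tissue and mouse. The groups were hearts of 4 Abcb5 mutant mice, hearts of 4 wild-type mice, livers of 3 Abcb5 mutant mice and livers of 4 wild-type mice. All were males of the C57BL/6J-Tyr strain, aged 17 weeks, and the mutants were homozygous. The labels' animal numbers show 8 mice behind the 15 arrays, 7 of them with a heart and a liver array. Which change in Abcb5, an ATP-binding cassette transporter, the mutation makes is not given in the sources used here, nor is the feeding state of the mice. No probe was named Abcb5 in the annotation used, so the genotype labels were not checked by the mutated gene.

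Long-chain fatty acids are activated to acyl-CoA, carried into mitochondria as carnitine esters and shortened by a repeating spiral of dehydrogenation, hydration, another dehydrogenation and thiolysis. Peroxisomes run a parallel spiral with their own enzymes, mainly on very long and branched chains. PPAR-alpha, bound to fatty acids and paired with a retinoid X receptor, drives many of these genes. Heart muscle takes most of its energy from this pathway, while the liver also turns its product into ketone bodies for other tissues.

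PPAR-alpha binds direct repeats of a hexamer in its target promoters, so windows of members that were lower in mutant hearts, and the 1 member window with a repeat, are printed here. The RefSeq windows of build GRCm38.p6 run from 250 bases before to 50 bases after a start site, and 36 of the 42 members had one, with 40 windows in all. Cpt1b, Acaa2, Hsd17b4, Vnn1, Decr1 and Crat had none in the table used. The exact DR1, 2 hexamers AGGTCA in the same direction with 1 base between them, was searched on both strands and matched 0 of the 40 member windows and 0.0396% of all 32851 windows. The loose DR1, which allows any base at the T of each hexamer and so includes the exact one, occurred in 1 member window, that of the liver fatty acid binding protein Fabp1, and in 0.381% of all windows. The single hexamer AGGTCA, which can lie within either repeat, occurred in 25% of member windows and in 16.3% of all windows. Capitals mark matches to the hexamer or to the loose DR1 on either strand, and a window in lower case alone holds neither. The windows are Slc25a20 at chr9:108661886-108662185, Ech1 at chr7:28825088-28825387, Acot2 at chr12:83987611-83987910, Ucp3 at chr7:100472741-100473040 and Fabp1 at chr6:71199629-71199928, all on the plus strand.
Slc25a20: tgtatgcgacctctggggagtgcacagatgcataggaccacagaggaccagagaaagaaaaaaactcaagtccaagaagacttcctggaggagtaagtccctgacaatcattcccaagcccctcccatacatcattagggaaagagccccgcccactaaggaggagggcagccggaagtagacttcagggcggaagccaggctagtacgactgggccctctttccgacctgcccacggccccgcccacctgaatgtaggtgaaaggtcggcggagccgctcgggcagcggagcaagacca
Ech1: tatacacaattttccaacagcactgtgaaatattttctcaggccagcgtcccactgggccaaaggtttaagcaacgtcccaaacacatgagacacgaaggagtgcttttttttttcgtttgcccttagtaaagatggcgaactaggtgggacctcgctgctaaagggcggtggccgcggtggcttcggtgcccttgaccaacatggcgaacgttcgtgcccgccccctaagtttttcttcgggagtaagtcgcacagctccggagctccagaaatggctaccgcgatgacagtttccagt
Acot2: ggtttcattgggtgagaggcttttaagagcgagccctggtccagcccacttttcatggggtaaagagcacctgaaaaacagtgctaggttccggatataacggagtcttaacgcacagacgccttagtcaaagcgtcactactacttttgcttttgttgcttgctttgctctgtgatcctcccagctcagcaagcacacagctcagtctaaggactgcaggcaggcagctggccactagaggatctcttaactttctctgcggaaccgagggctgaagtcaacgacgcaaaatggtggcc
Ucp3: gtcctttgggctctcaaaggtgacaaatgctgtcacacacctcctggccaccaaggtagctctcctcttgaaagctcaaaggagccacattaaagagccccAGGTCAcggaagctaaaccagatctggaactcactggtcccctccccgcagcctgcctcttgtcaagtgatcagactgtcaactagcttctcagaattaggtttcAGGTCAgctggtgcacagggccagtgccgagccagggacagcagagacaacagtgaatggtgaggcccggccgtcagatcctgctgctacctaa
Fabp1: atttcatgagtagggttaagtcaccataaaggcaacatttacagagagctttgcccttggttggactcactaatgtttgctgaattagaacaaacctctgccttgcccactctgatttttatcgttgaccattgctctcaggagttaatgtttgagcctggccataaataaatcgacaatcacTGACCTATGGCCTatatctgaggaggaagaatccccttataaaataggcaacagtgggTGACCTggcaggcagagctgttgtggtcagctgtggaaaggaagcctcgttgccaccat
Of the 4 windows from genes lower in mutant hearts, only that of Ucp3 held the hexamer, at positions -149 and -44 from the start. In the Fabp1 window the loose DR1 match TGACCTATGGCCT, on the opposite strand, lay at position -67.

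Values are log2 of the background-corrected intensity plus 16, and each gene is given by its brightest probe on average there. Changes are mutant minus wild type on this scale and understate the changes of dim probes. Probes above background on at least 3 arrays of a tissue were tested there, and a change was called at a limma adjusted p below 0.05 over all tested probes. The tissues appear to have been scaled separately, since 27.7% to 27.8% of the deposited values lay below 0 on heart arrays and 0% on liver arrays, and levels are compared only within a tissue. Hepatocyte markers summed to 41421 to 44795 intensity units on mutant and 39265 to 45965 on wild-type liver arrays, where all 5 probed cardiomyocyte markers were below the filter. Cardiomyocyte markers summed to 58051 to 72937 on mutant and 66171 to 118449 on wild-type heart arrays, where Alb and Tat of hepatocytes were below the filter. Precision is limited by the number of arrays.

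In the mutant hearts, the member genes of mitochondrial fatty acid oxidation leaned lower while a ketone body enzyme was higher. Of the 36 members tested in heart, 5 fell and 1 rose, against 0.837% of all 18519 tested probes called lower and 1.14% called higher. Changes were negative in 28 members, against 48.7% of all probes. The 5 were Slc25a20, Decr1, Ech1, Acot2 and Ucp3, and the riser was Bdh1. Without adjustment 13 members were lower and 1 was higher at p below 0.05, where 7.34% and 8.38% of all probes were. In 14 members every mutant heart was below every wild-type heart, and in 1 member above, against 4.57% and 5.46% of all probes. The median change of the tested members was -0.16, beside 0.01 over 1 probe for each of 12542 genes. Members were mostly bright, and among the 26 with a mean log2 of 8 or more, 3 were called lower, beside 1.42% of the 2887 genes that bright. Shares set beside those of all probes, here and in liver, describe a set chosen with earlier results known and are no test of it. In whole hearts, fewer cells of a type and less RNA per cell cannot be told apart.

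**Figure D1:**
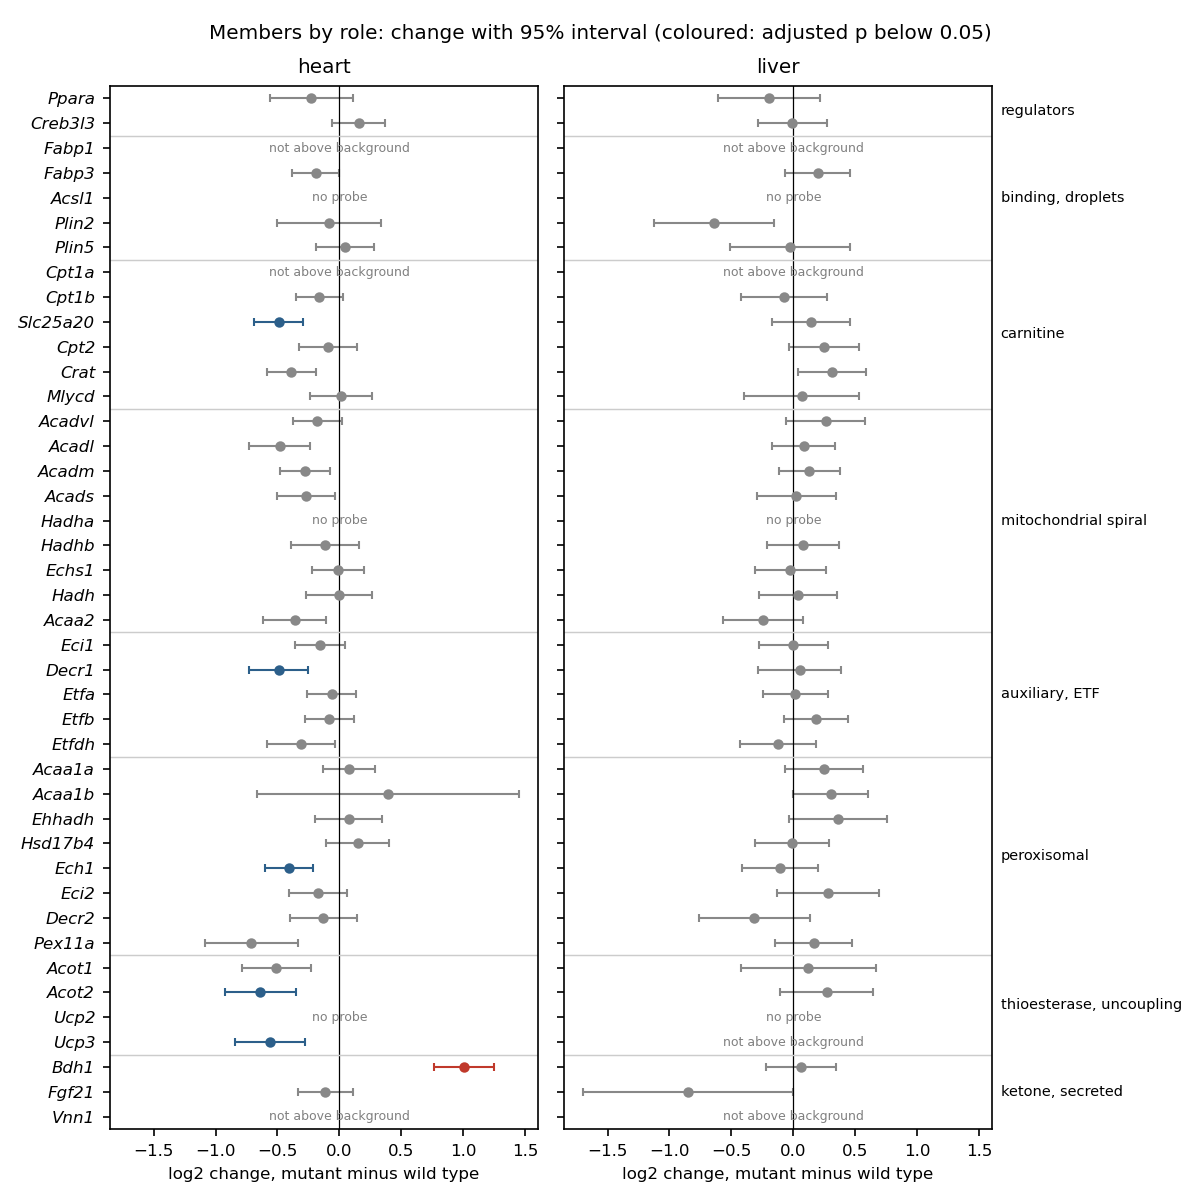
Log2 change, mutant minus wild type, with its 95% interval for every tested member, grouped by role, in heart and in liver; coloured points were called at an adjusted p below 0.05. In heart 28 of 36 members lie below 0, and 6 are coloured, while in liver 23 of 35 lie above 0 and none is coloured.

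The carnitine system brings acyl groups across the inner mitochondrial membrane, and its translocase was lower in mutant hearts. Slc25a20, which exchanges acylcarnitine for free carnitine, was at 11.57, 11.59, 11.52 and 11.64 in mutant hearts and at 12.05, 12.10, 12.17 and 11.97 in wild-type hearts. All mutant hearts lay below all wild-type hearts, and the spread within each genotype was small. The gene fell by 0.49 on the log2 scale (SE 0.09, n = 4 and 4, 28.8% lower, limma adjusted p = 0.0168). Its second tested probe changed by -0.44 ± 0.12 (SE, adjusted p = 0.0870).

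Crat, which moves short acyl groups between carnitine and coenzyme A, was at 10.19, 10.29, 10.21 and 10.19 in mutant hearts, against 10.57, 10.48, 10.66 and 10.72 in wild-type hearts. The genotypes did not overlap, but the change of -0.39 ± 0.09 missed the threshold (adjusted p = 0.0537). Its dimmer probes changed by -0.35 and -0.11. Cpt1b, the muscle form of the enzyme that loads acyl groups onto carnitine, changed by -0.16 with no overlap. Cpt2, which returns them to coenzyme A inside the mitochondrion, overlapped between the genotypes. Mlycd, which removes the CPT1 inhibitor malonyl-CoA, changed by 0.01. The liver form Cpt1a was above background on 0 mutant hearts and on 1 wild-type heart and was not tested. Its probe was above background on only 1 liver array as well, so it gave no level in either tissue. In all, 1 of 5 tested members of the carnitine system was called, lower, as were 0.837% of all tested heart probes.

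Within the mitochondrial spiral all 8 tested members had a negative change by their brightest probe, with a median of -0.22. None of these probes passed the adjusted threshold. Acadl, the long-chain acyl-CoA dehydrogenase, was at 9.79, 10.06, 9.67 and 9.65 in mutant hearts and at 10.35, 10.10, 10.36 and 10.30 in wild-type hearts. Its change was -0.48 ± 0.11 (SE, adjusted p = 0.0542), and mutant heart 2 nearly met wild-type heart 2. Acadm, the medium-chain dehydrogenase, was at 13.58, 13.77, 13.59 and 13.74 in mutant hearts and at 14.03, 13.91, 13.95 and 13.91 in wild-type hearts, a change of -0.28 (adjusted p = 0.163) without overlap. Acaa2, a mitochondrial thiolase, was at 11.11, 11.33, 11.39 and 11.58 in mutant hearts and at 11.68, 11.76, 11.87 and 11.56 in wild-type hearts. Mutant heart 4 overlapped wild-type heart 4, and the change was -0.36 (adjusted p = 0.149). Dimmer Acaa2 probes changed by -0.46, -0.40 and 0.67, the last past the threshold (adjusted p = 0.00782). Acads and Acadvl, the short-chain and very-long-chain dehydrogenases, changed by -0.27 and -0.18 without overlap. Hadh and Echs1, which carry out the middle steps, changed by -0.01 each, and Hadhb of the trifunctional protein by -0.11. The Hadh probe was dim, at 5.58 to 5.99 in mutant and 5.63 to 6.01 in wild-type hearts, and a dimmer one changed by 0.12. Echs1 was bright, at 11.34 to 11.48 in mutant and 11.24 to 11.57 in wild-type hearts.

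The auxiliary enzymes prepare unsaturated chains for the spiral, and the electron transfer flavoproteins take up its electrons. Decr1, the mitochondrial dienoyl-CoA reductase, was at 9.84, 9.64, 9.91 and 9.98 in mutant hearts and at 10.23, 10.30, 10.55 and 10.25 in wild-type hearts. The genotypes were apart, and Decr1 fell by 0.49 (SE 0.11, 28.8% lower, adjusted p = 0.0422). The other 4 tested members of this group, Eci1, Etfa, Etfb and Etfdh, had changes between -0.31 and -0.06, none called. Etfdh, which hands the electrons to ubiquinone, was the lowest of these and overlapped between the genotypes through mutant heart 2.

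Over the mitochondrial steps as a whole, 17 of 18 tested members had a negative change by their brightest probe and the median was -0.17. Among 8 peroxisomal members 4 were negative and 4 positive and the median was -0.03. Further genes listed outside the members did not divide this way. There, 5 of 10 tested mitochondrial and ketone genes were negative (median -0.02), and 9 of 12 peroxisomal ones (median -0.05). Ech1, a dienoyl-CoA isomerase found in both organelles, was at 13.44, 13.48, 13.34 and 13.41 in mutant hearts, against 13.80, 13.75, 13.83 and 13.93 in wild-type hearts. It fell by 0.41 (SE 0.09, 24.7% lower, adjusted p = 0.0373) and the genotypes were apart. Pex11a, which promotes peroxisome division, was at 7.49, 8.20, 8.32 and 7.64 in mutant hearts and at 8.67, 8.53, 8.80 and 8.48 in wild-type hearts. Mutant hearts 1 and 4 were the lowest, and the change of -0.71 ± 0.17 missed the threshold (adjusted p = 0.0595), although a dimmer second probe fell by 0.80 (SE 0.16, adjusted p = 0.0221) and another, dimmer still, changed by 0.00. Acaa1a, Hsd17b4 and Ehhadh, enzymes of the peroxisomal spiral, changed by 0.08, 0.15 and 0.08, and the auxiliary enzymes Eci2 and Decr2 by -0.17 and -0.13. The genotypes overlapped for all 5. Ehhadh, at 4.44 to 4.87 in mutant and 4.39 to 4.83 in wild-type hearts, was near the floor of the scale. Decr2 was also dim, at 5.18 to 5.69 in mutant and 5.40 to 5.70 in wild-type hearts, so both changes may be understated.

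Acaa1b, a peroxisomal thiolase, varied most between hearts of one genotype. It was at 4.67, 4.21, 5.63 and 6.74 in mutant hearts and at 5.80, 5.32, 4.38 and 4.16 in wild-type hearts. The fat cell hormone Adipoq was at 6.81, 5.26, 7.44 and 8.96 in the same mutant hearts and at 8.53, 8.31, 5.51 and 5.47 in the same wild-type hearts. High Acaa1b thus lay on the arrays with high Adipoq in both genotypes. Of the white fat markers, 3 of 5 probed passed the filter, with Retn and Fabp4 below it. Among the 3 tested, 2 had a positive change, at most 0.16, and 1 changed by -1.80, with none called. All 5 probed white fat markers together summed to 36.1 to 533 in mutant hearts and 59.9 to 647 in wild-type hearts. Their part in the spread of Acaa1b was not tested.

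The acyl-CoA thioesterases release fatty acids from coenzyme A, and Ucp3 is a mitochondrial carrier of muscle. Acot2, the mitochondrial thioesterase, was at 6.89, 7.05, 7.01 and 6.92 in mutant hearts and at 7.45, 7.48, 8.03 and 7.46 in wild-type hearts. It fell by 0.64 (SE 0.13, 35.7% lower, adjusted p = 0.0298), with wild-type heart 3 above the other wild-type hearts. Its 2 dimmer probes changed by 0.10 and -0.03. Ucp3 was at 5.76, 5.65, 5.37 and 5.82 in mutant hearts and at 6.21, 6.08, 6.49 and 6.05 in wild-type hearts. It fell by 0.56 (SE 0.13, 32.2% lower, adjusted p = 0.0465), and its other probe changed by -0.37. Acot1, the cytosolic thioesterase, was at 8.68, 8.85, 9.23 and 8.84 in mutant hearts and at 9.46, 9.28, 9.61 and 9.28 in wild-type hearts, a change of -0.51 (adjusted p = 0.0713). The genotypes did not overlap for any of these genes. Acot1 and Acot2 are near-identical neighbours, and whether their probes tell them apart was not checked here.

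**Figure D2:**
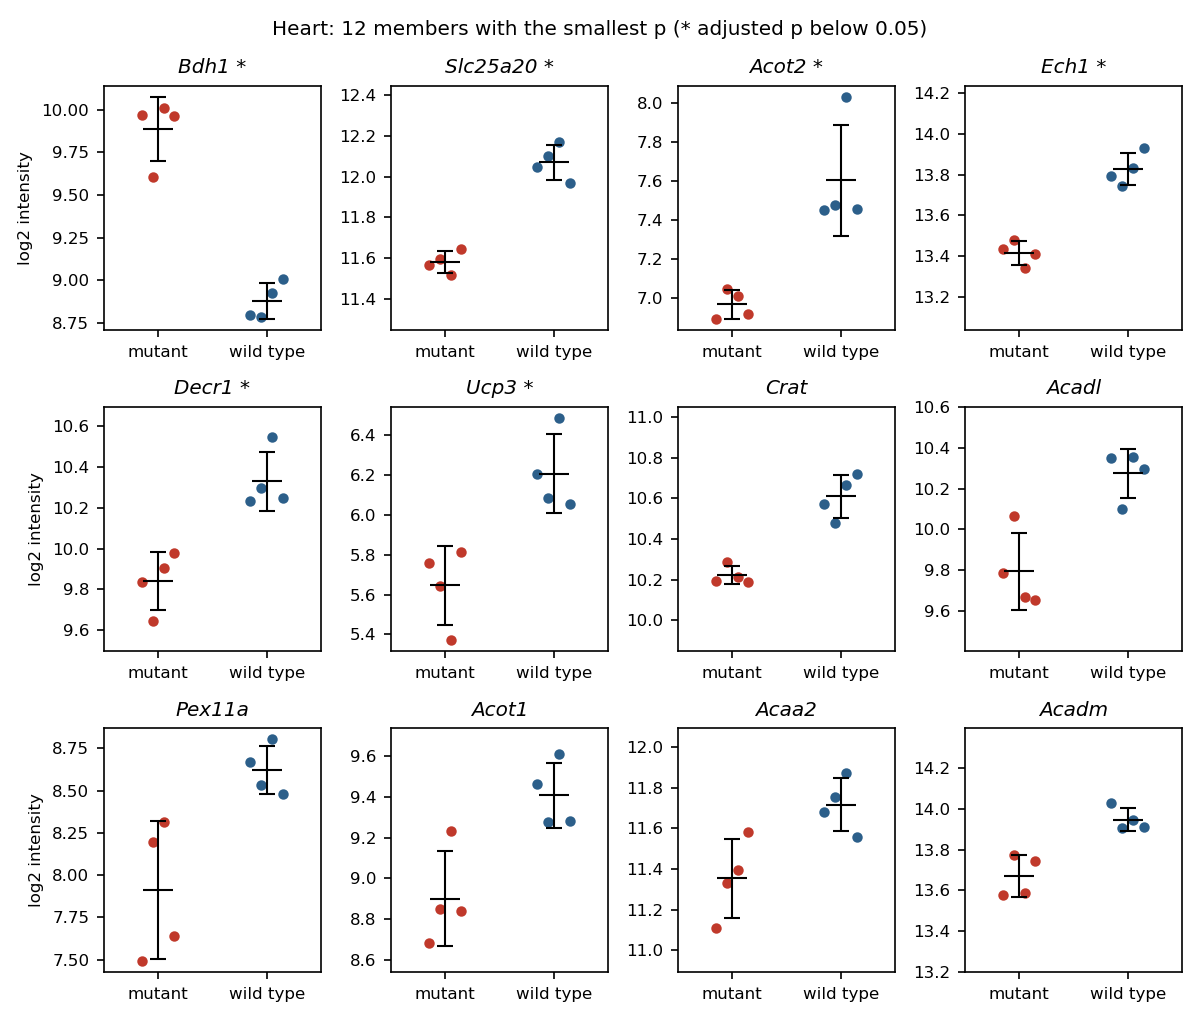
Log2 intensity of 12 members on each heart array, mutant hearts left of wild-type hearts, with the group mean; the members are the 6 called ones and the 6 next by p. Only Bdh1 sits higher in the mutants, at 9.61 to 10.01 beside 8.79 to 9.01 in wild type, and only Acaa2 overlaps.

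Bdh1, the mitochondrial enzyme that interconverts the ketone bodies acetoacetate and beta-hydroxybutyrate, rose in mutant hearts. It was at 9.97, 9.61, 10.01 and 9.96 in mutant hearts and at 8.80, 8.79, 8.93 and 9.01 in wild-type hearts. Every mutant heart was above every wild-type heart, with mutant heart 2 the lowest of the mutants. The change was 1.01 ± 0.11 (SE, 2.01-fold higher, adjusted p = 0.000829), and the gene's second probe was above background on 1 heart array only. Oxct1, which uses ketone bodies outside the liver, changed by 0.33 ± 0.11 (adjusted p = 0.148).

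The regulators and lipid-binding members gave no calls in heart. Ppara itself was at 4.27, 4.64, 4.36 and 4.99 in mutant hearts and at 4.97, 4.89, 4.74 and 4.57 in wild-type hearts, near the floor of the scale and overlapping (change -0.23, adjusted p = 0.521). Creb3l3, a membrane-bound transcription factor of liver, was above background on 4 mutant hearts and 1 wild-type heart and changed by 0.16 (adjusted p = 0.482). Fabp3, the heart fatty acid binding protein, changed by -0.19 without overlap (adjusted p = 0.318). The lipid droplet proteins Plin2 and Plin5 changed by -0.08 and 0.05, and the hormone Fgf21 by -0.11. Fabp1 and the pantetheinase Vnn1 were not above background in any heart.

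Array by array, the median of the 36 members stood 0.20, 0.18, 0.18 and 0.13 below the wild-type mean in mutant hearts 1 to 4, and at 0.01, -0.02, 0.05 and -0.09 in wild-type hearts 1 to 4. The shift was thus present in each mutant heart, while the median over all probes lay within 0.02 of 0 on each heart array.

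**Figure D3:**
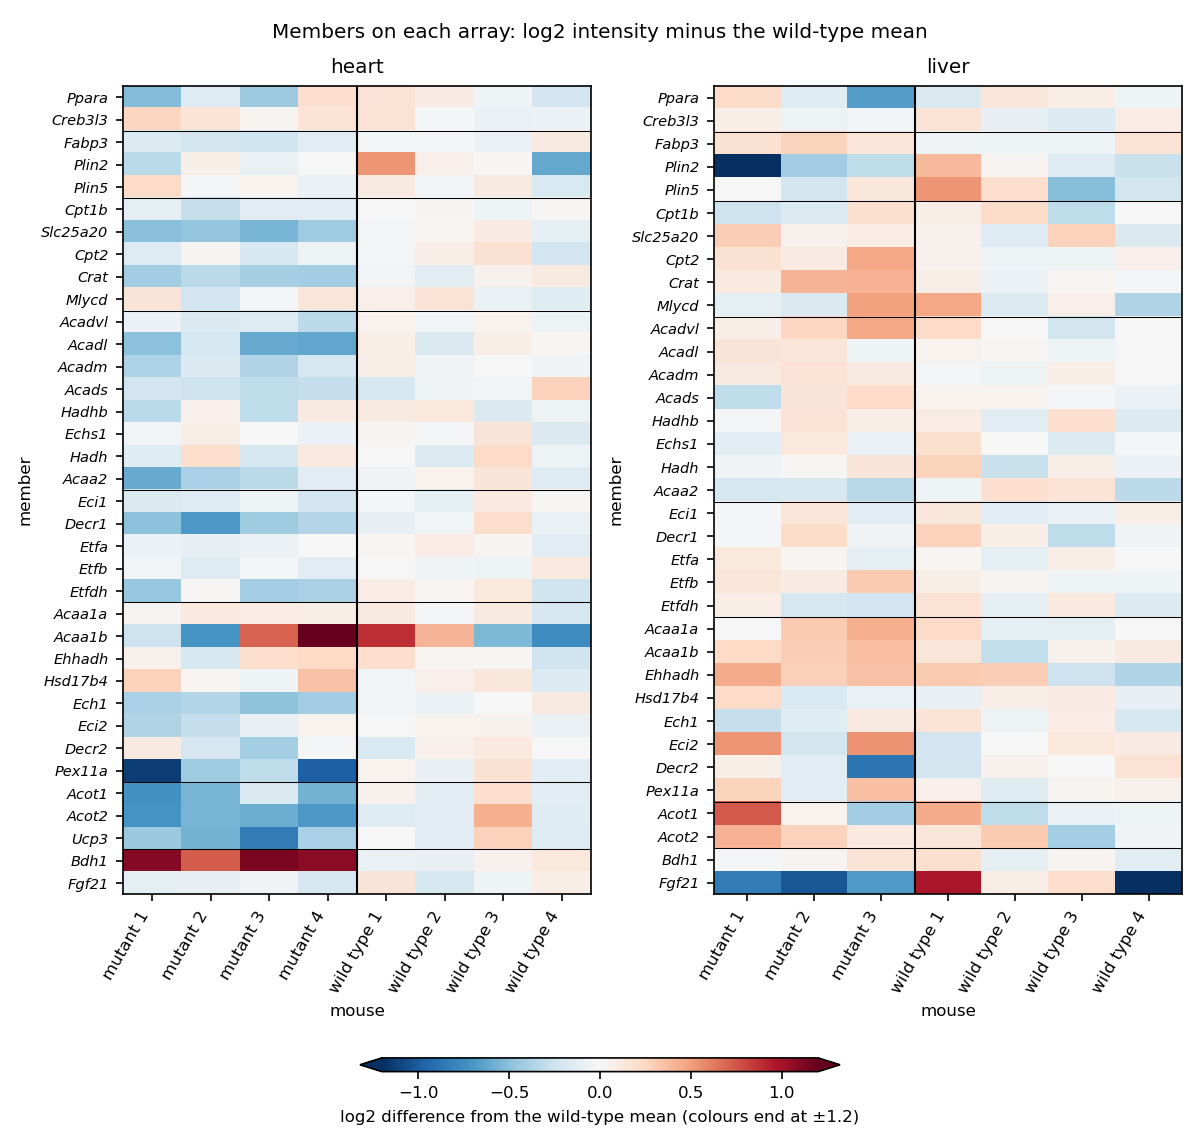
Heat maps of log2 intensity minus the wild-type mean for each tested member (rows, by role) and mouse (columns, mutants left of wild types), heart on the left and liver on the right; colours end at ±1.2. In heart the Slc25a20, Crat, Acadm, Decr1, Ech1, Acot2 and Ucp3 rows are blue in all 4 mutant columns and Bdh1 is red, while in liver Plin2 and Fgf21 are blue in all 3 mutant columns.

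Other transcripts also differed between the heart groups. Erythroid markers summed to 25896 to 30661 in mutant hearts and 36922 to 73885 in wild-type hearts. Of the 5, 3 fell, with changes of -2.14 for Alas2, -3.06 for Hbb-bt and -1.76 for Slc4a1. A further 1 had a positive change, of 0.86, which was not called. Endothelial markers summed to 3993 to 4409 in mutant hearts and 3162 to 3403 in wild-type hearts, with 6 of 6 positive and none called. Of the fibroblast markers 2 of 6 rose, Col1a1 and Col3a1, although the list's sum was 6015 to 6405 in mutant hearts and 6710 to 8220 in wild-type hearts. Skeletal muscle markers summed to 2998 to 11373 in mutant hearts and 1683 to 3154 in wild-type hearts, mostly through Acta1 (change 1.42, adjusted p = 0.0514). Cardiomyocyte markers had 0 of 5 called and 4 of 5 negative, with the highest sum on wild-type heart 4. The part of these markers in the changes of the oxidation genes was not tested.

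The count of called members was sensitive to single hearts. Leaving out any 1 heart left 2 to 4 members called: 2 without wild-type heart 3, mutant heart 1 or mutant heart 4, 3 without wild-type heart 1 or 2 or mutant heart 2 or 3, and 4 without wild-type heart 4. Bdh1 was called in each of these fits. Slc25a20 was called in all but those without wild-type heart 3 (adjusted p = 0.0572) and without mutant heart 3 (adjusted p = 0.0555). Acot2 was called in the 4 fits without a wild-type heart and in none of the 4 without a mutant heart (adjusted p = 0.0571 to 0.0862). Ucp3 was called only without wild-type heart 4, with an adjusted p of 0.0598 to 0.124 in the other 7 fits. Decr1 and Ech1 were called in none of the 8, with adjusted p of 0.0542 to 0.117 for Decr1 and of 0.0627 to 0.108 for Ech1. The change of each of these genes stayed negative in all 8 fits.

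In liver none of the 35 tested members was called by limma, in a tissue where 0.101% of all 11824 tested probes were. Without adjustment 4 members had p below 0.05, Plin2 and Fgf21 lower and Crat and Acaa1b higher, against 11.4% of all probes. Changes were positive in 23 members and negative in 12, from -0.85 to 0.36 with a median of 0.06, while 49.4% of all probes were positive. Every mutant liver was above every wild-type liver for 5 members, Cpt2, Crat, Acadm, Etfb and Acaa1b, and below for Plin2, against 5.44% and 5.78% of all probes. Over the mitochondrial steps 14 of 18 members were positive (median 0.06), and over the peroxisomal ones 5 of 8 (median 0.21). Fabp1, known as an abundant hepatocyte protein, was above background on 0 of 7 liver arrays, so its probe gave no level here. Ucp3, Cpt1a and Vnn1 were not tested either, with Ucp3 above background on 0 liver arrays and Cpt1a and Vnn1 on 1 each.

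Plin2, which coats lipid droplets, was at 6.83, 7.61 and 7.72 in mutant livers and at 8.42, 8.06, 7.87 and 7.76 in wild-type livers. Mutant liver 1 was the lowest, and the change was -0.64 ± 0.22 (SE, n = 3 and 4, adjusted p = 0.317). Fgf21, a fasting hormone secreted by the liver under PPAR-alpha, was at 5.31, 5.11 and 5.46 in mutant livers and at 7.12, 6.22, 6.36 and 4.88 in wild-type livers. Wild-type liver 4 lay below all mutant livers, and the change was -0.85 ± 0.39 (adjusted p = 0.436). Leaving out wild-type liver 1 gave -0.52 (adjusted p = 0.674), and leaving out wild-type liver 4 gave -1.27 (adjusted p = 0.0612).

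Crat was at 6.08, 6.37 and 6.38 in mutant livers and at 6.03, 5.89, 5.99 and 5.94 in wild-type livers, a change of 0.31 ± 0.13 (adjusted p = 0.377). Acaa1b was at 13.32, 13.37 and 13.44 in mutant livers and at 13.22, 12.78, 13.13 and 13.19 in wild-type livers, a change of 0.30 ± 0.14 (adjusted p = 0.436). Neither pair of groups overlapped, by small margins. Ehhadh, the peroxisomal bifunctional enzyme, was at 6.87, 6.71 and 6.79 in mutant livers and at 6.74, 6.73, 6.18 and 6.07 in wild-type livers, which overlapped (change 0.36). Cpt2 changed by 0.25, Acadvl by 0.26 and the thiolase Acaa1a by 0.25, none called.

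**Figure D4:**
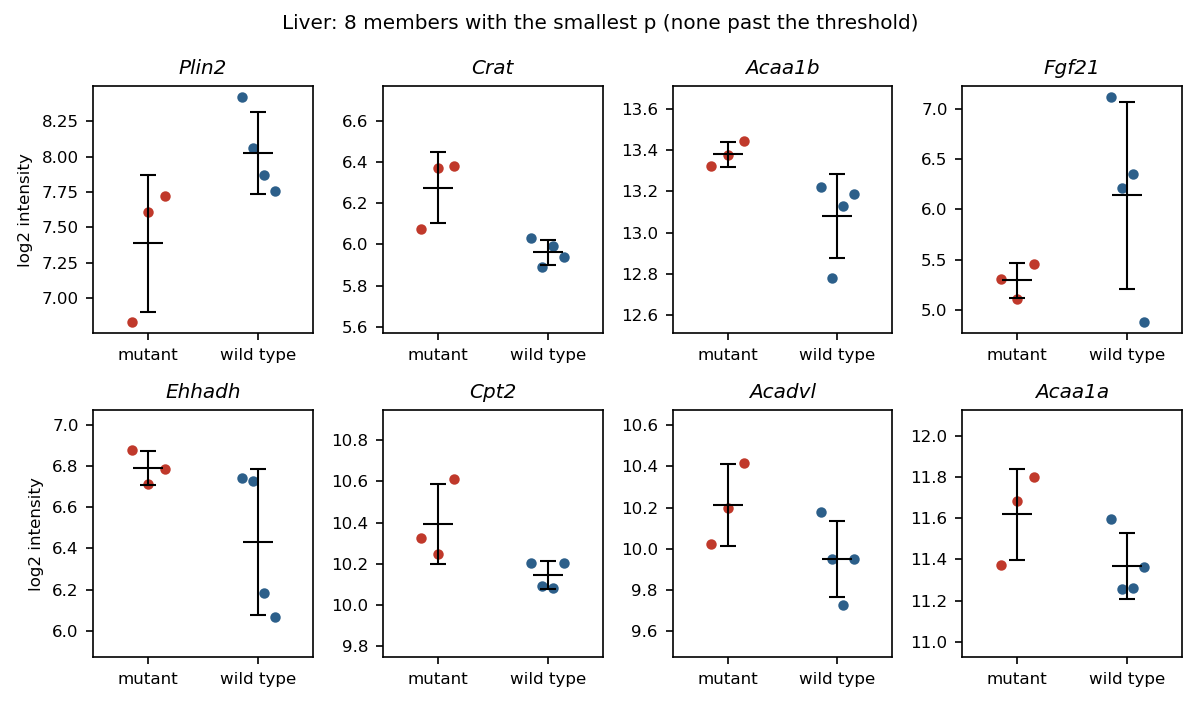
Log2 intensity of 8 members, those of smallest p, on each liver array, mutant livers left of wild-type livers, with the group mean. Fgf21 spreads from 4.88 to 7.12 in wild-type livers and from 5.11 to 5.46 in mutant livers, while Crat and Acaa1b are just apart.

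For members called in heart, the interval of the change in liver is given for the brightest liver probe only. The 95% interval was -0.17 to 0.46 for Slc25a20, -0.28 to 0.39 for Decr1, -0.42 to 0.20 for Ech1 and -0.22 to 0.34 for Bdh1. The Acot2 probe read in liver was another than in heart, with -0.10 to 0.64. Dimmer liver probes changed by -0.26 ± 0.13 (SE) for Bdh1 and by -0.22 ± 0.16 for Slc25a20. Both changes lay below the interval of the brightest probe, so the intervals do not bound the change of the gene. Ucp3 was not tested in liver.

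Whether the genotype change differed between the tissues was tested for 35 members by subtracting the change in heart from that in liver, each mouse being a random block. Of these, 3 differed, against 2.19% of all 11310 probes tested in both tissues. Bdh1 differed by -0.94 ± 0.16 (SE, adjusted p = 0.00817), with changes of 0.06 in liver and 1.01 in heart. Crat differed by 0.70 ± 0.14 (adjusted p = 0.0144), with changes of 0.31 in liver and -0.39 in heart. Slc25a20 differed by 0.64 ± 0.16 (adjusted p = 0.0424), with changes of 0.15 in liver and -0.49 in heart. Next came Pex11a (0.88 ± 0.24, adjusted p = 0.0639) and Acadm (0.41 ± 0.12, adjusted p = 0.103). A dimmer Crat probe tested in both tissues changed by -0.32 in liver and -0.35 in heart, so the opposite directions rest on the brighter probe. A dimmer Slc25a20 probe changed by -0.22 in liver and -0.44 in heart. With the mouse as a fixed block, or with the mean of each gene's probes, only Bdh1 was called. Without 1 array, Slc25a20 stayed called only when wild-type liver 3 or wild-type heart 4 was left out, and its adjusted p was 0.0522 to 0.0874 in the other such fits. The log2 changes come from tissues that appear to have been scaled separately, with a higher background in liver.

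Several members had more than 1 probe, and the probes did not always move together. In heart 17 members had several tested probes, and for 11 of them all changes had the same sign. The thiolase Acaa2 stood out, since its 3 brighter probes changed by -0.36, -0.46 and -0.40 and its dimmest rose by 0.67 (SE 0.11, adjusted p = 0.00782). That probe was at 9.85, 9.78, 9.93 and 9.71 in mutant hearts and at 9.35, 9.11, 9.17 and 8.94 in wild-type hearts, with no overlap. In liver the signs differed for 9 of 14 such members, among them Crat (0.31 and -0.32) and Slc25a20 (0.15 and -0.22). Which part of a transcript each probe reads was not analysed here.

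**Figure D5:**
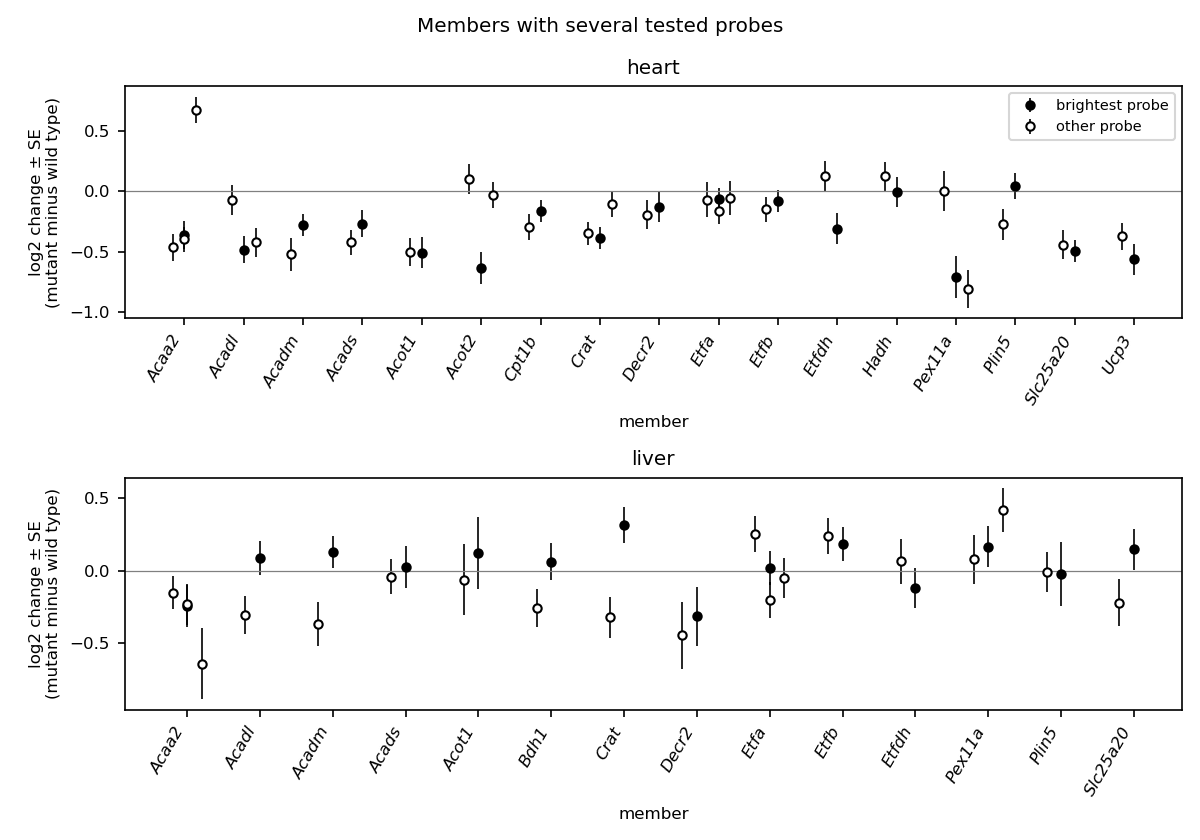
Log2 change, mutant minus wild type, ± SE for each tested probe of the members with several probes, heart above and liver below; filled points are the brightest probe of a gene. In heart 1 open point of Acaa2 lies at 0.67, while the other 3 probes of that gene lie below 0.

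Beyond the members, 59 further genes of fatty acid uptake, lipolysis, oxidation and PPAR-alpha signalling were listed, of which 48 were tested in heart. There 1 fell and 0 rose, against 0.837% and 1.14% of all probes, with a median change of -0.04. The one was Ppargc1b, a coactivator of PPAR-alpha and its relatives, at 8.62, 9.46, 8.98 and 8.86 in mutant hearts and 9.76, 9.56, 9.88 and 9.63 in wild-type hearts (change -0.73 ± 0.16, adjusted p = 0.0359). By value, the lipoprotein lipase inhibitor Angptl4 changed by -0.96 (adjusted p = 0.0808), the lipase inhibitor G0s2 by -0.75 (adjusted p = 0.170) and Pdk4, which curbs glucose oxidation, by -0.52 (adjusted p = 0.158). The genotypes overlapped for all of these but Ppargc1b. Others of the 48 went the other way: 29 changes were negative and 19 positive, the highest 0.48. Without adjustment 7 were lower and 5 higher at a limma p below 0.05, where 7.34% and 8.38% of all probes were. Of 13 tested genes of uptake and lipolysis 7 were positive, with a median of 0.11.

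In liver 44 of the 59 were tested, 34 with a positive change, against 49.4% of all probes, and the median was 0.12. Every mutant liver was above every wild-type liver for 8 and below for 1, against 5.44% and 5.78% of all probes. Without adjustment 9 were higher and 2 lower at a limma p below 0.05, where 5.31% and 6.11% of all probes were. After adjustment 1 was called, beside 0.101% of all probes. Pdk4 fell by 1.11 (SE 0.14, adjusted p = 0.0172), with 5.21, 5.03 and 4.84 in mutant livers and 6.02, 6.02, 6.38 and 6.13 in wild-type livers. Cyp4a14, a fatty acid omega-hydroxylase and PPAR-alpha target, was at 11.48, 10.29 and 10.13 in mutant livers and at 8.35, 7.45, 7.13 and 9.57 in wild-type livers. Every mutant liver was above every wild-type liver, but the spread was wide and the change of 2.51 ± 0.50 missed the threshold (adjusted p = 0.116). The coactivator Ppargc1a changed by 0.71 ± 0.15 (adjusted p = 0.145) with no overlap. These genes of one pathway thus differed in sign in liver, and only Pdk4 was called.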

How the data were processed

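Biotin-labelled cRNA from total RNA of each tissue was hybridised to Illumina bead arrays, per the labels' protocols. The submitters' processing notes name GenomeStudio 2011.1. The deposited table holds linear intensity per probe. How the authors normalized it is not given in the sources used here. A second, non-normalized table had 15 sample columns whose names matched no label, and was not used. The platform annotation gave 1 symbol for 23978 probes and several for 0, and did not list 1719.

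Each array's background was estimated as the mode of its low values with the SD below it. Deposited intensity was corrected by the normexp model and expressed as log2 after adding 16. A probe was above background at a normal p below 0.05. The design had assumed detection p-values for this step. Within a tissue, limma 3.58.1 (lmFit, eBayes, R 4.3.3) compared the genotypes with Benjamini-Hochberg adjustment. The tissue difference came from 1 fit of 15 arrays and treated mouse as random (duplicateCorrelation with statmod 1.5.0, correlation 0.0122). Animal numbers in the labels pair the tissues. In the same mouse, deviations from the group means correlated between the tissues at -0.04 to 0.05.

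Members and lists were chosen with earlier results of these data known. The text names each called member, filled to 12 in heart, 8 in liver and 5 for the tissue difference by smallest p. Within a tissue each array was another mouse, and Pearson correlations between replicates were 0.981 to 0.992. The tests were tried on simulated data with known changes. Alternatives covered the offset, background, normalization, filter, empirical Bayes settings, choice of probe, replicate block and leaving out each array.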

Additional observations from a re-analysis of the deposited data

Results flagged for a closer look

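Mutant heart 2 stood apart from the other mutant hearts for Bdh1, at 9.61 beside 9.96 to 10.01, with a gap of 0.893 of the group's range. Wild-type heart 3 stood apart for Acot2, at 8.03 beside 7.45 to 7.48, with a gap of 0.963 of the range. These were 2 of 32 groups examined, and chance flags about 1 in 20.

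The genotype change was called different between the tissues for 3 of 35 members, against 2.19% of all 11310 probes tested in both. Liver change minus heart change was -0.94 for Bdh1, 0.70 for Crat and 0.64 for Slc25a20. Of 24 alternatives Bdh1 lost the call in 0, Crat in 2 and Slc25a20 in 15.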

How the results depend on the processing

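In heart 6 members were called. An offset of 50 gave 10, trend and robust settings 12, the replicate block 2 and the floor, the unfiltered fit and the mean of a gene's probes 4 each, while the filter on every array and the single fit of all arrays gave 9 each, quantile normalization 6 and leaving out 1 heart 2 to 4. Bdh1 was called in all of these. Decr1 and Ucp3 each lost the call in 11 of 17 alternatives, Ech1 in 9, Acot2 in 7 and Slc25a20 in 3. Over all probes, heart calls numbered 367, and from 130 to 604 under the alternatives. The heart median stayed between -0.17 and -0.13. In liver 0 members were called, and 1 with the replicate block (Fgf21, -1.27, adjusted p = 0.0420), in which wild-type liver 4 has no mutant of its number and does not bear on the change. The liver median was 0.06, and -0.0051 with the mean of probes. For the tissue difference 3 members were called, and 5 with an offset of 50, the floor or trend and robust settings, 1 with the mean of probes or the mouse as a fixed block, and 2 to 4 without 1 array. The replicate numbers did not pair the genotypes: same-numbered deviations correlated at -0.11 to -0.05 in heart and -0.04 to 0.01 in liver. The cause of these differences was not tested, beyond the smaller groups when an array is left out.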

Other observations

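Over the 8 hearts, Acaa1b followed the brown fat carrier Ucp1 as well as Adipoq. Ucp1 was at 5.65, 4.27, 8.88 and 7.74 in mutant hearts and at 8.72, 6.10, 4.45 and 4.47 in wild-type hearts. The Spearman correlation of Acaa1b across the hearts was 0.952 with Adipoq and 0.833 with Ucp1. The pair was picked after the values were seen, so these are descriptions of 8 arrays. Of the 3 tested brown fat markers 1 was positive and 2 were negative between the genotypes (median -0.18). Correlations of Acaa1b with the other fat markers were not computed. What the genes share was not tested.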
